A study of Mus musculus with 30 samples.

Results

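The tibialis anterior of mice at day 11 after volumetric muscle loss was compared with the same muscle at day 7. In this injury a block of muscle is cut out, and its matrix, nerve and vessels go with it. The comparison takes 12 of the 30 RNA libraries of the study: 6 from day 11 (3 female, 3 male) and 6 from day 7 (3 female, 3 male), chosen by the time after injury in the sample titles. The other libraries were from uninjured muscle, from day 4 and from day 15, with 3 female and 3 male each, and they entered the fit only to estimate the spread. The labels give sex, tissue and time, and they give no strain, age or size of the defect. They do not say whether each library came from a different animal, so a p-value here is set by sample-to-sample spread that may be partly technical.

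After muscle damage, macrophages clear debris while satellite cells, the stem cells of muscle, divide and fuse into new fibres that first use embryonic and neonatal myosins. Fibro-adipogenic progenitors, the resident mesenchymal cells, lay down matrix and shape the niche of the satellite cells. When a whole piece of muscle is lost, much of the gap fills with connective tissue in place of fibres. The interval between day 7 and day 11 lies between the early inflammatory phase and later remodelling.

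The libraries held 27129433 to 38555740 counts at day 11 and 20674040 to 52483561 at day 7. Muscle genes were abundant in all 12 libraries: Ckm, the muscle creatine kinase, ranged over 1061 to 4123 CPM (counts normalised to library size with TMM factors) at day 11 and over 347 to 6257 CPM at day 7. The liver genes Alb and Ttr had 0 counts at day 11 and 2 counts each over the 6 libraries of day 7. Krt5 and Krt14 of skin reached at most 0.474 and 0.316 CPM at day 11, and both had 0 counts at day 7. Days did not separate as blocks: Spearman correlations of log2 CPM were 0.933 to 0.987 between libraries of day 11, 0.920 to 0.987 between libraries of day 7, and 0.924 to 0.986 between libraries of different days.

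A pair of libraries stood apart. The library labelled female day 11 replicate 3 goes against its label, with 0.109 CPM of Xist, the X-inactivation transcript of female cells, and 57.4 CPM of the Y-linked Ddx3y. It also had the lowest summed level of 20 core macrophage genes among the libraries of day 11, 368 CPM against 650.5 to 3315 CPM in the other 5, and the lowest of 22 fibrillar and network collagen genes, 7428 CPM against 11031 to 34513 CPM. Female day 7 replicate 3 had 347 CPM of Ckm and 10.6 CPM of the adipocyte hormone gene Adipoq, against 1048 to 6257 and 0.0932 to 0.828 CPM in the other libraries of day 7. Both were kept under their labels, and results are also given without them where that matters.

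Only 10 of 17136 tested genes were called at an adjusted p under 0.05, which is 0.0584% (edgeR's quasi-likelihood test with Benjamini-Hochberg adjustment, both sexes as labelled weighted equally, which balances sex by label only). Of these, 7 were higher at day 11 (0.0408%) and 3 were lower (0.0175%). With library size alone in place of TMM factors the split was 5 higher and 0 lower, and with RLE factors it was 6 higher and 2 lower. At an unadjusted p under 0.05 there were 682 genes higher at day 11 (3.98% of those tested) and 624 lower (3.64%). A difference of at least 2-fold in either direction, with no test, was seen for 676 genes (3.94%). The median log2 fold change over all tested genes was -0.02, with 46.9% of genes above 0, a median SE of 0.23 and a median 95% interval of 0.47 to either side. In bulk tissue, fewer cells of a type and less RNA per cell cannot be told apart, which holds for every gene below.

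**Figure D1:**
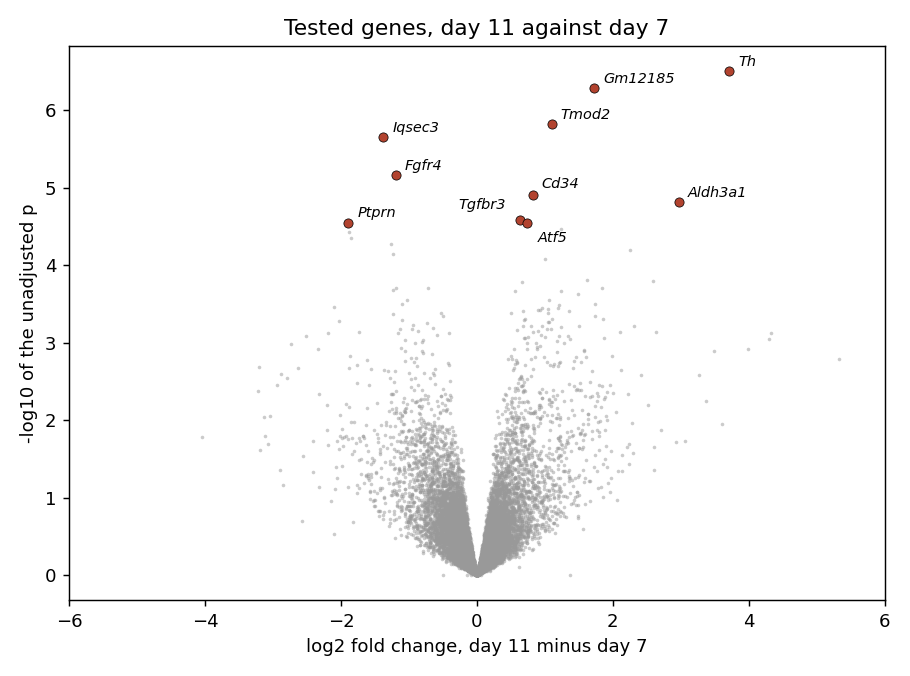
Each point is 1 tested gene, placed by its log2 fold change (day 11 minus day 7, horizontal axis) and by -log10 of its unadjusted p (vertical axis). The 10 genes with an adjusted p under 0.05 are named, 7 of them to the right and 3 to the left, and 1 gene with an absolute log2 fold change over 6 lies outside the axis.

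The called genes that were higher at day 11 encode a catecholamine enzyme, an aldehyde dehydrogenase, an actin capping protein, a progenitor surface protein, a TGF-beta co-receptor, a stress transcription factor and a predicted gene. Those that were lower encode a fibroblast growth factor receptor of regenerating muscle and 2 proteins best known from synapses and secretory granules. By the rule set for naming genes, which passes over predicted genes, Tmod2, Cd34, Tgfbr3, Iqsec3 and Fgfr4 are named; Th, Gm12185, Aldh3a1, Atf5 and Ptprn fall outside it and were added after their values were seen. For 7 of the 10 genes, all but Aldh3a1, Atf5 and Ptprn, the 6 libraries of day 11 and the 6 of day 7 did not overlap, which held for 59 of all tested genes (0.344%).

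Th encodes tyrosine hydroxylase, the rate-limiting enzyme of catecholamine synthesis and a marker of sympathetic nerve. Its transcript was at 0.947 CPM in the lowest, 1.55 in the median and 1.99 in the highest library of day 11, against 0.0312, 0.139 and 0.184 CPM at day 7. Every library of day 11 was above every library of day 7, although the level was low on both days, with 339 counts in all at day 11 and 34 at day 7. The log2 fold change was 3.71 ± 0.54 (SE, adjusted p = 0.00451 by edgeR), and it was 4.19 in females and 3.23 in males.

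Tmod2 encodes tropomodulin 2, which caps the pointed ends of actin filaments and is best known from neurons. It was at 8.10, 9.25 and 12.01 CPM in the lowest, median and highest library of day 11, against 3.92, 4.58 and 4.99 CPM at day 7. The groups were well apart and narrow, and the log2 fold change was 1.10 ± 0.18 (SE, adjusted p = 0.00876 by edgeR). Gm12185, a predicted gene, was at 4.92, 6.28 and 15.997 CPM at day 11, against 1.49, 2.05 and 3.93 CPM at day 7, again without overlap (log2 fold change 1.73 ± 0.25, adjusted p = 0.00451 by edgeR). Its highest library at day 11, at 15.997 CPM, was female day 11 replicate 3, and without that library the log2 fold change was 1.53 (adjusted p = 0.0115).

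Cd34 encodes a surface sialomucin of fibro-adipogenic progenitors, endothelium, satellite cells and blood progenitors. It was at 195, 215 and 242 CPM in the lowest, median and highest library of day 11, against 91.8, 127 and 160.2 CPM at day 7. All 6 libraries of day 11 were above all 6 of day 7 (log2 fold change 0.82 ± 0.15, adjusted p = 0.0361 by edgeR). Tgfbr3 encodes betaglycan, a co-receptor that presents TGF-beta ligands and binds inhibin. It was at 35.7, 43.0 and 50.3 CPM at day 11, against 21.8, 28.1 and 32.4 CPM at day 7, with no overlap (log2 fold change 0.63 ± 0.12, adjusted p = 0.0499 by edgeR).

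Fgfr4 encodes the fibroblast growth factor receptor that myoblasts and young fibres carry. It was at 16.9, 20.6 and 28.9 CPM in the lowest, median and highest library of day 11, against 29.1, 42.0 and 90.8 CPM at day 7. The days did not overlap but came close, and the libraries of day 7 were widely spread (log2 fold change -1.19 ± 0.21, adjusted p = 0.0237 by edgeR). Iqsec3 encodes an exchange factor for ARF GTPases that is best known at inhibitory synapses. It was at 8.08, 10.01 and 12.7 CPM at day 11, against 15.7, 25.999 and 37.4 CPM at day 7, without overlap (log2 fold change -1.38 ± 0.22, adjusted p = 0.00952 by edgeR).

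In the remaining 3 called genes the days overlapped. Aldh3a1, an aldehyde dehydrogenase best known from the cornea, was at 1.08, 2.44 and 8.56 CPM at day 11 against 0.117, 0.387 and 1.40 CPM at day 7 (log2 fold change 2.98 ± 0.55, adjusted p = 0.0378 by edgeR). Its log2 fold change was 4.84 in females and 1.11 in males. Atf5, a transcription factor of the cellular stress response, was at 55.2, 63.3 and 100.1 CPM at day 11 against 32.9, 39.7 and 62.4 CPM at day 7 (log2 fold change 0.74 ± 0.15, adjusted p = 0.0499 by edgeR). Male day 7 replicate 1, at 62.4 CPM, was above 2 libraries of day 11. Ptprn, a transmembrane protein of dense-core secretory granules, was at 0.550, 1.08 and 2.25 CPM at day 11 against 2.00, 3.42 and 10.5 CPM at day 7 (log2 fold change -1.89 ± 0.37, adjusted p = 0.0499 by edgeR).

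**Figure D2:**
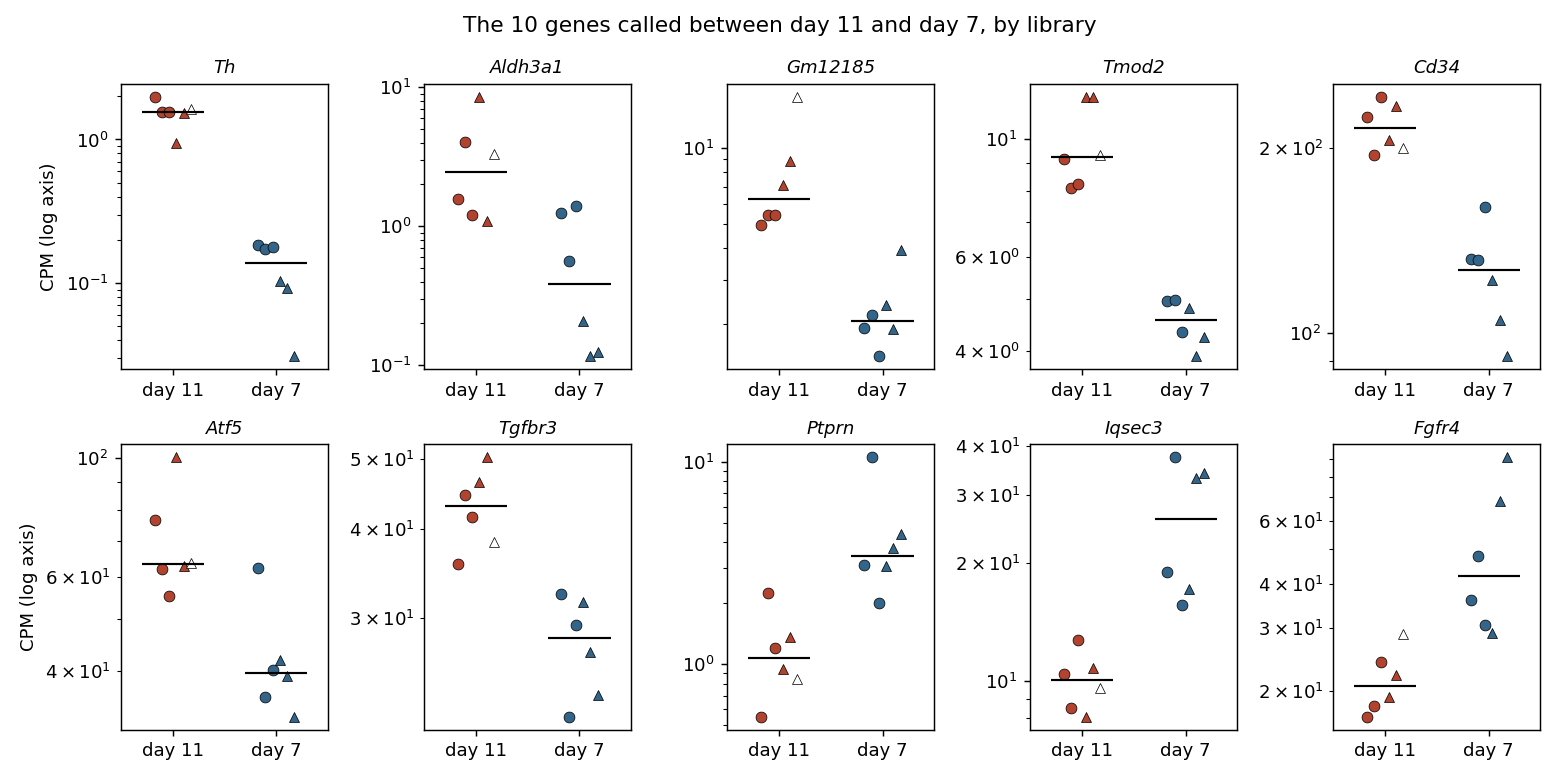
CPM on log axes of the 10 called genes in the 6 libraries of day 11 (left, red) and the 6 of day 7 (right, blue); circles are male, triangles female, the open triangle is female day 11 replicate 3, and bars are medians. Th shows the widest gap, 0.947 to 1.99 against 0.0312 to 0.184 CPM, and Aldh3a1, Atf5 and Ptprn are the genes whose days overlap.

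Most calls did not hold in every fit that left out 1 library. Across those fits the log2 fold change of Cd34 ran over 0.79 to 0.88 and that of Tgfbr3 over 0.58 to 0.70. That of Ptprn ran more widely, over -2.20 to -1.35. When each of the 12 libraries was left out in turn, Th, Gm12185 and Tmod2 were called in all 12 fits, Iqsec3 in 9, Fgfr4 in 6, Cd34, Aldh3a1, Atf5 and Ptprn in 4 and Tgfbr3 in 3. With only the 12 libraries in the fit Gm12185 and Tmod2 had an adjusted p of 0.132 each, with thinned libraries 0.116 each, and in a test against a 1.5-fold change they were not called either, which left Th alone. In the fit of the 12 libraries the adjusted p by edgeR was 0.329 for Iqsec3, 0.530 for Cd34, 0.556 for Fgfr4 and 0.716 for Tgfbr3. At an unadjusted p under 0.05, 793 genes passed in that fit, against 1306 with all libraries. Most calls thus rested on the spread estimated with the other days. The number of genes called was 3 without male day 7 replicate 2 and without female day 11 replicate 1, and 4 without male day 11 replicate 1, female day 7 replicate 2 or female day 7 replicate 3. It was 6 without male day 11 replicate 2 or replicate 3, 8 without male day 7 replicate 3, 14 without female day 11 replicate 2 (of which Ddx3y, Eif2s3y and Uty, 3 genes, are Y-linked) and 15 without male day 7 replicate 1. It was 29 without female day 7 replicate 1 and 33 without female day 11 replicate 3. DESeq2 called 128 genes (82 higher and 46 lower), among them all 10 and the Y-linked Ddx3y and Kdm5d.

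**Figure D3:**
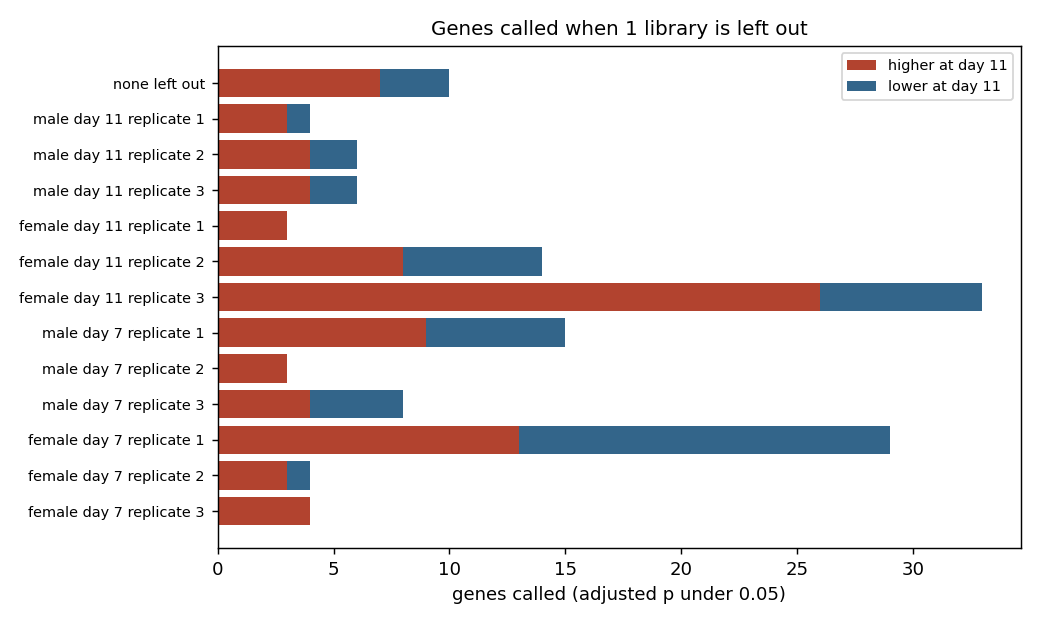
Bars give the number of genes with an adjusted p under 0.05 (edgeR) when no library or 1 library is left out, split into genes higher (red) and lower (blue) at day 11. The number runs over 3 to 33 around the 10 genes of the full set, with the most calls when female day 11 replicate 3 is left out.

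The called genes differed in where the change lies in the whole course. At uninjured, day 4, day 7, day 11 and day 15, Th averaged 0.126, 0.0142, 0.127, 1.53 and 2.98 CPM and Tmod2 averaged 4.11, 3.74, 4.54, 9.81 and 18.2 CPM. At day 7 both were near the uninjured mean, while Th was lower at day 4, on 6 counts in all 6 libraries. Cd34 averaged 61.8, 115, 124, 217 and 295 CPM over the same times, and Tgfbr3 averaged 17.8, 25.3, 27.6, 42.8 and 64.8 CPM. Both of these were farther from the uninjured mean at day 11 than at day 7.

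The genes that were lower at day 11 followed a descending course after day 4. Fgfr4 averaged 5.60, 64.4, 50.5, 21.5 and 12.6 CPM at uninjured, day 4, day 7, day 11 and day 15, and Iqsec3 averaged 3.72, 49.4, 26.03, 10.02 and 4.72 CPM. Ptprn averaged 0.514, 16.8, 4.47, 1.19 and 0.880 CPM. Atf5 ran the other way, with 128, 44.4, 42.1, 70.1 and 105 CPM. These 4 genes, 4 of the 10 called, were nearer to the uninjured mean at day 11 than at day 7, against 8054 of all 17136 tested genes (47.0%).

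**Figure D4:**
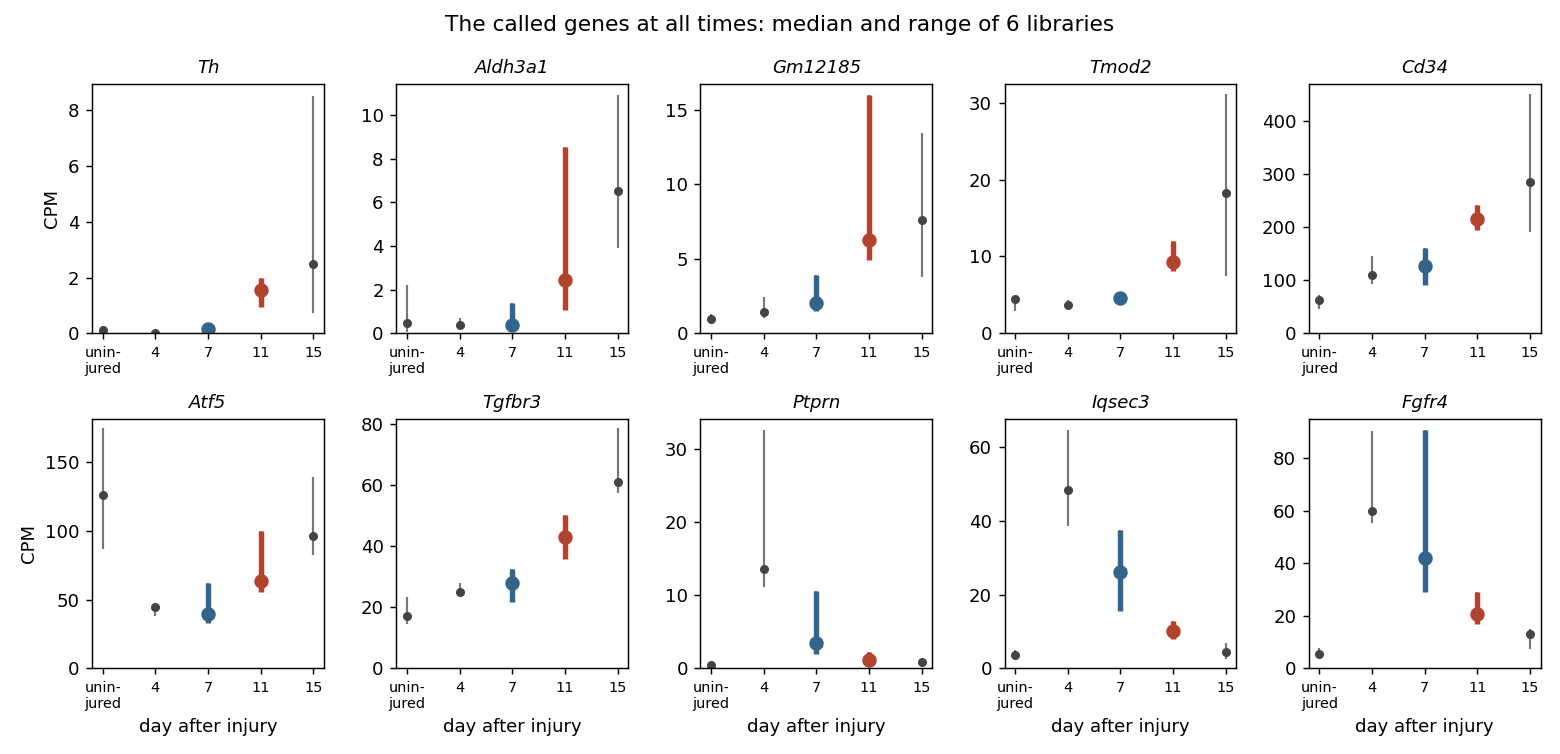
Median (point) and range (line) in CPM of 6 libraries at each time for the 10 called genes, from uninjured muscle to day 15, with day 11 in red and day 7 in blue. Th and Tmod2 lie near the uninjured level at day 7 and above it at day 11, while Iqsec3, Fgfr4 and Ptprn are highest at day 4.

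Promoter sequences are shown for Th, Cd34, Fgfr4 and Iqsec3, the called genes with a full symbol of their own, no overlap between the days and a single start in the table used; Tmod2 and Tgfbr3 have no single start there. Each runs over the 250 bases before and the 50 bases after the start (RefSeq, build GRCm38.p6), 5′ to 3′ on the gene's strand. The gene Th lies at chr7:142899946-142900245 on the minus strand, Cd34 at chr1:194938571-194938870 on the plus strand, Fgfr4 at chr13:55152568-55152867 on the plus strand and Iqsec3 at chr6:121473629-121473928 on the minus strand. Capitals mark the E-box CANNTG, the word read by myogenic and other basic helix-loop-helix factors, which reads the same pattern on both strands.
Th: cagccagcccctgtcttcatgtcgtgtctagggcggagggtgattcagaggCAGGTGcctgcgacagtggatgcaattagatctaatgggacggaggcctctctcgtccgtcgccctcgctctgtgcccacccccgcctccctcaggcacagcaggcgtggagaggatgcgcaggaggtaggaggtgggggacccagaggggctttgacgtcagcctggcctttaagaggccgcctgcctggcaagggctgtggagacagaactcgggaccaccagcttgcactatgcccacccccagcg
Cd34: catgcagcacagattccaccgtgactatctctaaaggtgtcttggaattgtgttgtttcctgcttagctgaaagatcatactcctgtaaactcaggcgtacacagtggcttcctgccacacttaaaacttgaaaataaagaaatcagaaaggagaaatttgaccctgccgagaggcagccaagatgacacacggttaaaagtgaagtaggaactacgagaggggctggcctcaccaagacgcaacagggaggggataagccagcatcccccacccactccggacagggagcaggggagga
Fgfr4: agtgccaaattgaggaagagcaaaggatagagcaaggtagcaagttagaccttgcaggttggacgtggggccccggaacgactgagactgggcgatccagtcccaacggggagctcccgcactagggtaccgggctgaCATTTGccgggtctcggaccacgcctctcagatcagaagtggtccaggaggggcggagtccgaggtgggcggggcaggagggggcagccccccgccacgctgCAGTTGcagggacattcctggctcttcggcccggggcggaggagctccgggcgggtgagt
Iqsec3: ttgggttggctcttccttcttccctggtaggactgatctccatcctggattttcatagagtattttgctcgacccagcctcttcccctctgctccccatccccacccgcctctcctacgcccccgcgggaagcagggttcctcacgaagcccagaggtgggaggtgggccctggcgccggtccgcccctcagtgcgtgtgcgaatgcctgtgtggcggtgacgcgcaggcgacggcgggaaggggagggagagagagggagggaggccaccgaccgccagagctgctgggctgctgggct
The Fgfr4 window held 2 E-boxes, CATTTG and CAGTTG, the Th window held 1, CAGGTG, and those of Cd34 and Iqsec3 held 0. At least 1 E-box was present in 72.3% of the 32841 promoters of this length, and at least 2 in 39.6%, so these matches only describe the windows.

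Genes of known cell types and pathways were then read as groups, from 61 lists with 1102 distinct tested genes. Only Cd34, Tgfbr3 and Fgfr4 among them were called. At an unadjusted p under 0.05 there were 164 listed genes (14.9%, against 7.62% of all tested genes), 103 higher and 61 lower. With only the 12 libraries in the fit, 107 listed genes and 793 of all tested genes passed this threshold. For the groups below, members counted as higher or lower are those at an unadjusted p under 0.05, to be read against 3.98% of all tested genes higher and 3.64% lower, and no member other than these 3 passed the adjusted test. Members named as examples were chosen after their values were seen, except for 42 genes that were always reported. The lists themselves were chosen with earlier results of these data known, so the higher share among listed genes is no separate support. Members of a list can move together, and some genes are in more than 1 list, so counts of members are not independent.

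**Figure D5:**
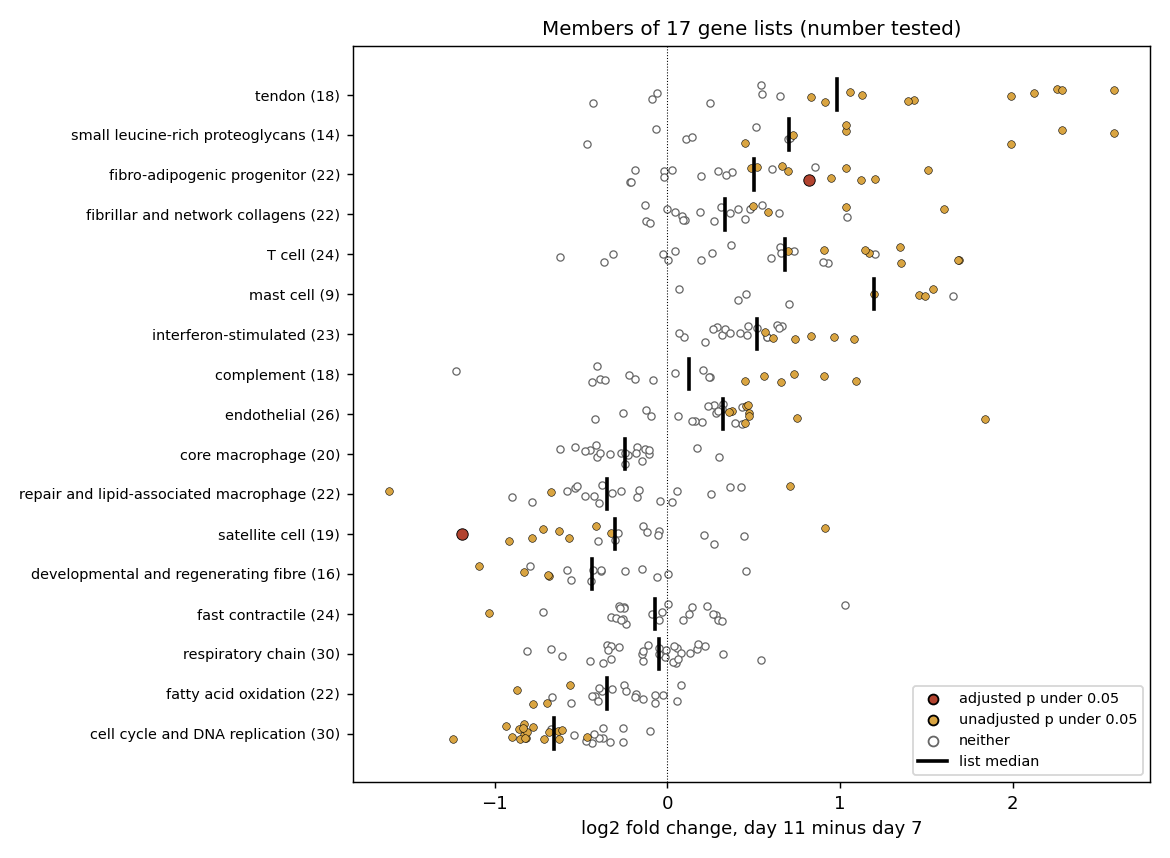
Log2 fold change (day 11 minus day 7) of every tested member of 17 gene lists, with the list median as a bar; red points have an adjusted p under 0.05 (edgeR), yellow points only an unadjusted p under 0.05. Tendon genes have the median 0.98 and cell cycle genes the median -0.65, and the red points are Cd34 and Fgfr4.

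Of 18 tendon genes, 11 were higher at day 11 and 0 lower, with a median log2 fold change of 0.98. Tnmd encodes tenomodulin, the surface glycoprotein of tendon cells. It was at 16.4, 135 and 188 CPM in the lowest, median and highest library of day 11, against 11.2, 23.1 and 52.0 CPM at day 7 (log2 fold change 2.26 ± 0.45, adjusted p = 0.0731 by edgeR). Only female day 11 replicate 3, the lowest, lay within the range of day 7, and the other 5 began at 84.4 CPM. Mkx, a homeobox factor of the tendon lineage, was at 2.81, 5.40 and 9.56 CPM at day 11 against 1.197, 1.94 and 3.76 CPM at day 7 (log2 fold change 1.43 ± 0.40, adjusted p = 0.222 by edgeR). The summed level of the list was 1262 to 2904 CPM at day 11 and 684 to 1501 CPM at day 7.

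Small leucine-rich proteoglycans, which bind collagen and space its fibrils, gave 7 of 14 members higher and 0 lower, with a median of 0.70. Kera, keratocan, was at 9.32, 48.1 and 75.9 CPM at day 11 against 3.87, 8.99 and 15.4 CPM at day 7 (log2 fold change 2.59 ± 0.55, adjusted p = 0.140 by edgeR). It is also in the tendon list, so the counts of higher members in both lists include it. Fmod, fibromodulin, was at 85.8, 162 and 467 CPM at day 11 against 25.4, 56.4 and 78.4 CPM at day 7, with no overlap (log2 fold change 1.99 ± 0.54, adjusted p = 0.215 by edgeR). Dcn, decorin, was at 141, 374 and 455 CPM at day 11 against 91.3, 141 and 333 CPM at day 7 (log2 fold change 1.04 ± 0.27, adjusted p = 0.164 by edgeR). DESeq2 gave Dcn an adjusted p of 0.0249.

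Of 22 fibro-adipogenic progenitor genes, 10 were higher at day 11 and 0 lower, with a median of 0.50, and Cd34 was the called one. Dpt, dermatopontin, was at 88.7, 312 and 496 CPM at day 11 against 88.6, 114 and 229 CPM at day 7 (log2 fold change 1.12 ± 0.32, adjusted p = 0.232 by edgeR). Clec3b, tetranectin, was at 27.0, 70.2 and 91.3 CPM at day 11 against 16.6, 30.3 and 33.5 CPM at day 7 (log2 fold change 1.21 ± 0.34, adjusted p = 0.225 by edgeR). Both genes mark fibroblasts of loose connective tissue, and in both the lowest library of day 11 lay within the range of day 7. Pdgfra, the receptor that defines these progenitors, was at 28.5, 33.2 and 40.2 CPM at day 11 against 20.4, 33.0 and 52.7 CPM at day 7 (log2 fold change -0.02, 95% interval -0.42 to 0.37).

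The bulk matrix genes were wide within each day. Of 22 fibrillar and network collagens, 4 were higher and 0 lower, with a median of 0.34. Without female day 11 replicate 2, the highest library of its day for this list, the median was 0.10. Then 4 members were higher and 0 lower, against 3.59% of all tested genes higher. Without that library the medians were 0.50 for the proteoglycan list and 0.42 for the fibro-adipogenic progenitor list. For the tendon list the median was 0.95 without it. Col15a1, a basement-membrane zone collagen, was at 131, 149 and 170.3 CPM at day 11 against 82.7, 93.9 and 129.8 CPM at day 7, without overlap (log2 fold change 0.58 ± 0.17, adjusted p = 0.225 by edgeR). Col1a1, the main collagen of scar and tendon, was at 1419, 5315 and 9667 CPM at day 11 against 1869.5, 3546 and 9364 CPM at day 7 (log2 fold change 0.31, 95% interval -0.55 to 1.17). The matrix glycoproteins Fn1 and Postn had log2 fold changes of 0.20 and -0.06, with 95% intervals of -0.65 to 1.06 and -1.04 to 0.92. Col3a1, the collagen of young granulation tissue, had 0.65 (-0.12 to 1.42), Tnc, tenascin C, -0.77 (-1.97 to 0.43), and Timp1, an inhibitor of matrix proteases, 0.26 (-0.58 to 1.09). Acta2, the smooth muscle actin of myofibroblasts, was at 119, 294 and 522 CPM at day 11 against 208, 534 and 745 CPM at day 7 (log2 fold change -0.75 ± 0.35, adjusted p = 0.642 by edgeR).

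Leaving out female day 11 replicate 3, the library with the lowest collagen and tendon sums of its day, gave 33 called genes (0.193%), 26 higher and 7 lower, of which 9 were among the 10. Tnmd then had a log2 fold change of 2.52 (adjusted p = 0.0122 by edgeR), Kera 2.83 (0.0325), Dcn 1.24 (0.0218) and Dpt 1.35 (0.0487). Igfbp6, an insulin-like growth factor binding protein, had 1.39 (adjusted p = 0.0149, against 1.24 and 0.0528 with all libraries), and Lyve1, a hyaluronan receptor of lymphatic endothelium and resident macrophages, had 2.03 (adjusted p = 0.0452). Female day 11 replicate 3 was the lowest library of its day for Tnmd, Kera, Dcn, Dpt and Igfbp6. Leaving it out therefore had to raise their level at day 11, and their lower adjusted p is no separate support. Ptprn was no longer called without it (adjusted p = 0.0671 by edgeR). Without both this library and female day 7 replicate 3, an alternative chosen after the data were seen, 15 genes were called, 6 of them among the 10.

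The list of genes of dividing cells held none that was called. All 30 cell cycle and DNA replication genes had a log2 fold change below 0 (46.9% of all tested genes were above 0), with a median of -0.65, and 18 were lower at day 11 and 0 higher. Aurka, the mitotic kinase Aurora A, was at 2.94, 4.40 and 5.50 CPM at day 11 against 5.70, 6.29 and 13.3 CPM at day 7, without overlap (log2 fold change -0.81 ± 0.22, adjusted p = 0.178 by edgeR). Mki67, the proliferation marker Ki-67, was at 26.8, 41.1 and 61.4 CPM at day 11 against 34.8, 70.5 and 121 CPM at day 7, with wide overlap (log2 fold change -0.78 ± 0.31, adjusted p = 0.500 by edgeR). The summed level of the list was 197 to 455 CPM at day 11 and 283 to 885 CPM at day 7, and without female day 11 replicate 3, again the lowest of its day, the list median was -0.52 with 10 members lower (5.51% of all tested genes). The sums of the days overlapped. Male day 7 replicate 2 had 885 CPM, against 283 to 576 CPM in the other libraries of day 7. Over the fits that leave out 1 library, the log2 fold change of Mki67 ran over -0.99 to -0.44.

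The satellite cell list held 8 lower members and 1 higher among 19, with a median of -0.30. Fgfr4 was the called one. Pax7, the transcription factor that defines satellite cells, was at 0.976, 1.86 and 3.68 CPM at day 11 against 1.98, 3.29 and 5.66 CPM at day 7 (log2 fold change -0.78 ± 0.31, adjusted p = 0.489 by edgeR). Megf10, an engulfment receptor of activated satellite cells, was at 6.70, 9.51 and 14.0 CPM at day 11 against 9.15, 17.2 and 32.0 CPM at day 7 (log2 fold change -0.92 ± 0.28, adjusted p = 0.276 by edgeR). Cdh15, the cadherin of myoblasts and satellite cells, was at 12.8, 20.4 and 27.4 CPM at day 11 against 19.9, 33.5 and 41.5 CPM at day 7 (log2 fold change -0.72 ± 0.16, adjusted p = 0.144 by edgeR). In each of the 3 the ranges overlapped.

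No gene of the fusion or young fibre lists was called. Of 21 myogenic regulation and fusion genes, 4 were lower and 0 higher (median -0.29), and of 16 developmental and regenerating fibre genes, 4 were lower and 0 higher (median -0.44). Female day 11 replicate 3 was the lowest library of its day for both lists. Without it the medians were -0.31 and -0.23, with 4 and 1 members lower (5.51% of all tested genes). The median library of the developmental list, by mean log2 CPM, was at 7.97 at day 11 and 7.81 at day 7. Myog, the myogenic factor of differentiation, was at 63.5, 255 and 347 CPM at day 11 against 171, 303 and 595 CPM at day 7 (log2 fold change -0.63 ± 0.32, adjusted p = 0.713 by edgeR). Myh3, embryonic myosin, was at 70.3, 604 and 772 CPM at day 11 against 608, 887 and 2013 CPM at day 7 (log2 fold change -1.09 ± 0.45, adjusted p = 0.526 by edgeR). Its lowest library at day 11 was female day 11 replicate 3, and without that library the log2 fold change was -0.83 (adjusted p = 0.499 by edgeR). Myh3 is in both lists, so both counts of lower members include it. Myh8, neonatal myosin, had a log2 fold change of -0.44 (95% interval -1.25 to 0.37), Mymk and Mymx, the membrane fusion proteins of myoblasts, had -0.57 and -0.76, and Chrng, the fetal acetylcholine receptor subunit, had -0.69.

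No gene of the mature fibre lists was called. Of 24 fast contractile genes 0 were higher and 1 lower (median -0.07), of 30 respiratory chain genes 0 were higher and 0 lower (median -0.05, and 0.00097 with library size alone), and of 22 fatty acid oxidation genes 0 were higher and 4 lower (median -0.35). Myh4, the main fast myosin of this muscle, was at 5628, 9173 and 17669 CPM at day 11 against 3682, 11425 and 21812 CPM at day 7 (log2 fold change -0.33, 95% interval -1.27 to 0.61). Myh2, another fast myosin, had a log2 fold change of 1.03 (95% interval -0.18 to 2.24), Myh1 of 0.28 (-0.56 to 1.12) and slow Myh7 of -0.13 (-1.48 to 1.22). Ckm, Acta1 and Sln had -0.72, -0.30 and 0.64. These intervals allow changes of over 2-fold in either direction for Myh7, and the summed level of the fast contractile list ran over 95486 to 220232 CPM at day 11 and 35853 to 220548 CPM at day 7.

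No gene of the lymphoid or interferon lists was called. Of 24 T cell genes 8 were higher and 0 lower, with a median of 0.68. Cd3g, a chain of the T cell receptor complex, was at 0.654, 1.79 and 7.20 CPM at day 11 against 0.234, 0.631 and 1.42 CPM at day 7 (log2 fold change 1.69 ± 0.49, adjusted p = 0.246 by edgeR). Cd3e, another chain of that complex, had a log2 fold change of 0.93 (95% interval -0.14 to 2.00). Foxp3, the factor of regulatory T cells, was at 0.336, 0.706 and 2.69 CPM at day 11 against 0.203, 0.382 and 0.468 CPM at day 7 (log2 fold change 1.36 ± 0.42, adjusted p = 0.309 by edgeR). By mean log2 CPM, female day 11 replicate 2 was the highest library of its day for T cell, interferon, complement and core macrophage genes, and the values change without it. The T cell median was then 0.32, with 4 members higher and 1 lower, against 3.59% of all tested genes higher and 4.49% lower. The log2 fold change without that library was 1.15 for Cd3g, 0.25 for Cd3e and 0.87 for Foxp3. Cd3e was at 3.10 CPM in that library and at 0.273 to 1.07 CPM in the other libraries of day 11.

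All 23 interferon-stimulated genes had a log2 fold change above 0, with a median of 0.52, and 6 were higher. The summed level was 454 to 2425 CPM at day 11 and 370.2 to 995 CPM at day 7, and female day 11 replicate 2 stood far above the other libraries of its day. Without that library the interferon median was 0.06, with 13 of 23 genes above 0 and 0 higher or lower, so the values of this list rested on it. Cxcl9, an interferon-induced chemokine, was at 8.94, 14.6 and 65.8 CPM at day 11 against 6.81, 9.26 and 16 CPM at day 7 (log2 fold change 1.08 ± 0.39, adjusted p = 0.424 by edgeR), and the log2 fold change was 0.43 without that library. Of 18 complement genes 6 were higher and 0 lower (median 0.13), with C3, the central component, at 14.8, 40.6 and 111 CPM at day 11 against 12.9, 18.6 and 30.2 CPM at day 7. Without female day 11 replicate 2 the complement median was -0.0020, with 1 member higher and 1 lower. Of 9 tested mast cell genes all were above 0 and 4 were higher (median 1.199), for example Cpa3, the mast cell carboxypeptidase, at 0.306, 0.679 and 1.96 CPM at day 11 against 0.0870, 0.289 and 0.460 CPM at day 7.

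No gene of the macrophage lists was called. Of 20 core macrophage genes 0 were higher and 0 lower, with a median of -0.25, and the median was -0.0036 without female day 11 replicate 3. Without female day 11 replicate 2 it was -0.60, with 0 members higher and 5 lower. Their summed level ran over 368 to 3315 CPM at day 11 and 973 to 3098 CPM at day 7. Adgre1, which encodes the macrophage antigen F4/80, was at 5.67, 27.8 and 54.8 CPM at day 11 against 11.0, 24.8 and 35.0 CPM at day 7 (log2 fold change 0.30, 95% interval -0.51 to 1.11). Of 22 genes of repair and lipid-associated macrophages, 1 was higher and 2 lower. Spp1, osteopontin, was at 16.3, 64.1 and 286 CPM at day 11 against 96.5, 148 and 906 CPM at day 7 (log2 fold change -1.61 ± 0.54, adjusted p = 0.372 by edgeR). The Spp1 value was -0.79 without male day 7 replicate 2 and -2.47 without male day 11 replicate 2, the highest library of each day. Igf1, a growth factor for muscle, was at 101, 308 and 484 CPM at day 11 against 106, 158 and 316 CPM at day 7 (log2 fold change 0.71 ± 0.31, adjusted p = 0.569 by edgeR).

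Further inflammatory genes had these values. Arg1, arginase of alternatively activated macrophages, was at 0.153, 0.715 and 2.41 CPM at day 11 against 0.911, 1.96 and 12.5 CPM at day 7 (log2 fold change -1.77 ± 0.54, adjusted p = 0.304 by edgeR). Ccl2, the monocyte chemoattractant, had a log2 fold change of -1.01, Il1b of -0.39 and S100a8 of neutrophils of -0.71, with adjusted p-values of 0.556, 0.962 and 0.843 by edgeR. Cd68 and Trem2 of macrophages had -0.62 and -0.58, Gpnmb, of lipid-laden macrophages, -0.90, Mrc1, the mannose receptor, 0.22, and H2-Ab1 of antigen presentation 0.71. H2-Ab1 was at 448 CPM in female day 11 replicate 2 and at 71.3 to 264 CPM in the other libraries of day 11. Over the fits that leave out 1 library its log2 fold change ran over 0.39 to 0.95. The median of 14 MHC class II presentation genes was 0.17, and -0.12 without female day 11 replicate 2. Adam8, a protease of leukocytes, had -1.13 ± 0.29 (adjusted p = 0.164 by edgeR).

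Of 26 endothelial genes, 9 were higher and 0 lower, with a median of 0.32. Flt4, the VEGF receptor of lymphatic and growing vessels, was at 13.7, 16.7 and 26.3 CPM at day 11 against 7.32, 10.6 and 13.7 CPM at day 7 (log2 fold change 0.75 ± 0.20, adjusted p = 0.167 by edgeR). Its libraries did not overlap but the nearest pair almost touched. Pecam1, a junction protein of all endothelium, was at 116, 129 and 149.9 CPM at day 11 against 73.1, 108 and 155 CPM at day 7 (log2 fold change 0.29, 95% interval -0.02 to 0.59). The highest mean log2 level of the endothelial list at day 11 was that of female day 11 replicate 3, and without it 4 members were higher (5.14% of all tested genes). Of 20 tested Schwann cell and nerve genes, 5 were higher and 3 lower, with a median of 0.46: the myelin gene Mag had a log2 fold change of 0.71 ± 0.29 and the neuregulin receptor Erbb3 of repair Schwann cells -0.52 ± 0.17 (adjusted p = 0.502 and 0.351 by edgeR).

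Within each sex edgeR called 0 genes. Females had 852 genes (4.97%) and males 528 (3.08%) at an unadjusted p under 0.05, and DESeq2 called 48 genes in females, 3 of them Y-linked, and 1 in males. The order of the sexes turned round without male day 7 replicate 1, with 909 genes in females and 1558 in males. In every other fit that left out 1 library females had more, but the numbers moved widely. There were 1460 in females and 650 in males without female day 7 replicate 1, and 1351 and 545 without female day 7 replicate 3. Without female day 11 replicate 3 there were 2054 in females and 631 in males. No gene was called for the difference between the sexes in this change by edgeR, with 192 genes (1.12%) at an unadjusted p under 0.05 and 2 called by DESeq2, the Y-linked Ddx3y and Kdm5d. At the unadjusted p, 936 genes passed without female day 11 replicate 3, 547 without male day 7 replicate 1, 476 without female day 7 replicate 1 and 404 without female day 7 replicate 3. In females 33 genes were called without female day 11 replicate 3, 11 without female day 11 replicate 2 (4 of them Y-linked), 4 without female day 11 replicate 1 (3 of them Y-linked) and 4 without female day 7 replicate 1. For all 10 called genes the female and the male log2 fold change had the same sign. Calling genes on the mean of both sexes favours this, so it is no separate support. Tmod2 was at 1.36 in females and 0.84 in males, Fgfr4 at -1.42 in females and -0.96 in males, and Iqsec3 at -1.56 in females and -1.19 in males. The female values include female day 11 replicate 3, whose Xist and Ddx3y go against its label.

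The 3 genes in each direction with the smallest p for the sex difference did not pass edgeR's adjusted test. The Y-linked demethylase gene Kdm5d led them, at 0, 0 and 21.0 CPM in the 3 libraries labelled female day 11 against 0 CPM in the 3 of female day 7. Its female change thus rested on female day 11 replicate 3. Kcnk5, a potassium channel, had a log2 fold change of 2.39 in females and -0.60 in males (difference 2.99 ± 0.78), with its highest value, 13.5 CPM, in the same library. Pcdhgc3, a protocadherin, had 0.76 in females and -2.16 in males. It was at 15.4 and 8.52 CPM in male day 7 replicates 2 and 3, against 1.66 CPM in replicate 1. Amacr, a racemase of branched fatty acid breakdown, had -1.19 in females and 0.01 in males. It was at 80.1 CPM in female day 7 replicate 3, which stood apart, against 32.2 and 35.0 CPM in replicates 1 and 2. Col25a1, a transmembrane collagen, had -0.92 in females and 0.69 in males, and Acot2, a mitochondrial acyl-CoA thioesterase, -0.74 in females and 0.22 in males. The adjusted p was 1.000 for each of the 6 by edgeR.

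Some genes tied to other fates of the repair tissue showed no call. Runx1 and Runx2, transcription factors of stressed muscle and of bone, had log2 fold changes of -0.18 and -0.34, with adjusted p-values of 0.972 and 0.890 by edgeR. Of 17 cartilage and bone genes 4 were higher and 1 lower (median 0.46), and the lower one, Sox9, the cartilage factor, was at 3.52, 5.11 and 7.55 CPM at day 11 against 6.06, 10.9 and 12.5 CPM at day 7 (log2 fold change -0.90 ± 0.24, adjusted p = 0.178 by edgeR). Adipoq, adiponectin of fat cells, ranged over 0 to 3.43 CPM at day 11 and 0.0932 to 10.6 CPM at day 7, and both maxima were libraries that stood apart. Of 25 TGF-beta signalling genes 3 were higher and 2 lower (median -0.08), with Tgfbr3 the called one and Tgfb1, the ligand, at a log2 fold change of -0.22 (95% interval -0.64 to 0.19).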

How the data were processed

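RNA counts of 12 libraries were compared, within a fit of all 30 libraries. Per the labels' protocols, a commercial laboratory extracted total RNA and made the libraries. The submitters' processing notes name STAR, edgeR and the build mm39. No source used here gives the counter, the annotation, or how strand and shared reads were handled. Each deposited file has 1 whole-number count for each of 26264 gene symbols. Of the counts from 1 to 20 in these libraries, 66.3 to 74.2% were even, a pattern that counting each end of a read pair would also give. Symbols were filtered with filterByExpr (17136 kept), scaled by TMM and fitted with edgeR 4.0.16 in R 4.3.3 (glmQLFit, glmQLFTest, 10 group means). P-values were adjusted by Benjamini and Hochberg, and 0.05 was the threshold. SE and 95% intervals come from the same fit, and none is printed for genes without counts in a group. Levels are CPM with TMM factors. Chi-square per degree of freedom between replicates was 80.9 to 939, so the spread exceeded counting error and all libraries were counted separately.

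Genes were named by rule: up to 10 called genes per direction without overlap whose CPM averaged 5 or more (predicted genes passed over), list members called in all fits that leave out 1 library (none met this), 42 fixed genes, and 3 genes per direction of the sex difference. The comparison, the 61 lists and the fixed genes were chosen with earlier results of these data known. Alternatives were DESeq2 1.42.0, scaling by RLE, no TMM factors, all genes with a count, a floor of 1 CPM in at least 3 libraries, a 1.5-fold threshold, only the 12 libraries, a replicate block, halved counts, libraries thinned to 20674040 counts and leaving out each library. Leaving out 2 libraries together and fitting the days without sex were added after the data were seen. Y-linked genes were taken from RefSeq (GRCm38.p6). The scripts were tested on simulated data.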

Additional observations from a re-analysis of the deposited data

Results flagged for a closer look

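In 116 groups of gene and day and 122 groups of list and day, 14 had a highest or lowest library far from the other 5 for the width of the group (Dixon's test at the 95% level); chance alone flags about 1 in 20 groups. Among genes, Th was low in female day 11 replicate 1 (0.947 CPM), and Ccl2 was high in male day 7 replicate 2 (19.7 CPM). Cd3e was low in male day 7 replicate 1 (0.138 CPM), and Dcn was low in female day 11 replicate 3 (141 CPM, against 318 to 455 CPM in the others of its day). Pcdhgc3 was high in female day 11 replicate 1 (4.48 CPM), Amacr in female day 7 replicate 3 (80.1 CPM) and Col25a1 in male day 11 replicate 2 (3.63 CPM).

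Among lists, scored as mean log2 CPM, interferon-stimulated genes were high in female day 11 replicate 2 (6.32, against 3.65 to 4.37 in the others). In female day 11 replicate 3 adipocyte genes were high (3.73, against 2.46 to 2.75) and myokines and secreted muscle factors were low (2.67). Cholesterol synthesis genes were low in female day 11 replicate 1 (3.17) and high in male day 7 replicate 2 (3.81). Cytosolic ribosomal protein genes were high in female day 7 replicate 2 (9.14), and markers of other tissues were low in male day 7 replicate 2 (0.2005).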

How the results depend on the processing

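Of 10 called genes, 5 stayed with library size alone (5 higher, 0 lower), 8 with RLE scaling and 10 with DESeq2, which called 128. Only 1 gene was called in a test against a 1.5-fold change, 1 with the 12 libraries alone and 1 with thinned libraries, and in each it was Th. Leaving out 1 library gave 3 to 33 called genes. Among listed genes, 3 were called, against 1 with library size alone, 22 with DESeq2, 0 in the tests against a 1.5-fold change, with the 12 libraries alone or thinned, 0 to 10 with 1 library left out (10 without female day 11 replicate 3, 5 without female day 7 replicate 1, 1 without male day 11 replicate 2 or 3 or female day 11 replicate 2, and 0 without male day 7 replicate 2, male day 11 replicate 1, female day 7 replicate 2 or 3 or female day 11 replicate 1) and 5 without female day 11 replicate 3 and female day 7 replicate 3. In males 1 gene was called by DESeq2. In females 48 were called by DESeq2, 1 with the 12 libraries alone, 4 with counts halved and 0 to 33 with 1 library left out. For the sex difference DESeq2 called 2, both Y-linked. The cause was not tested.

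With a replicate block 9 genes were called, all among the 10, and in females 5. Libraries with the same replicate number did not deviate together (mean r 0.0907 over 18 pairs, -0.0412 over 36 pairs with different numbers; in 4 of 12 cases the nearest library had the same number), so a shared number was not taken as a pair.

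Over 58 named genes and 24 alternatives, 31 values changed sign, in 13 genes that were not called. Without female day 11 replicate 3 and female day 7 replicate 3 these were log2 fold changes of 0.11 for Il1b, 0.28 for Postn, 0.19 for Pdgfra, 0.57 for Adipoq and 0.033 for Runx1, and with thinned libraries 0.0020 for Pdgfra. Over the fits that leave out 1 library, log2 fold changes ran over -0.51 to 0.16 for Myh4, -0.58 to 0.13 for Myh7, -0.95 to 0.15 for Ckm, -0.51 to 0.28 for Acta1, -0.011 to 0.83 for Col1a1, -0.13 to 0.73 for Fn1, -0.40 to 0.57 for Postn, -1.21 to 0.41 for Tnc, -0.17 to 0.17 for Pdgfra, -0.51 to 0.064 for Runx2, -1.74 to 1.24 for Adipoq and -0.39 to 0.011 for Runx1. At the lowest depth, 20674040 counts, genes near 1 CPM or below, such as Th and Cpa3, rest on few counts per library.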
